A study of Mus musculus with 22 samples.

Results

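The pair of mature miRNAs from the mir-126 hairpin, mmu-miR-126-3p and mmu-miR-126-5p, was followed through all samples of a mouse study of fallopian tube-derived cancer. They were taken by probe name and are 2 of the 566 mouse miRNA probes on the nCounter panel, an assay that counts fluorescent barcodes bound to each miRNA. The study profiled 22 samples. They were 5 uninduced control fallopian tubes (CT), 5 doxycycline-induced fallopian tubes (FT), 5 metastatic tumors (M), 3 plasma samples from control mice (CS) and 4 plasma samples from tumor-bearing mice (TS). All groups carried engineered Brca1 or Brca2 alleles together with other engineered alleles. In CT and CS the Brca1 or Brca2 alleles were floxed (fl/fl or fl/+) and not induced. In the induced groups, Brca1 was -/- in FT2 and TS1 and -/+ in M2 and M6, and Brca2 was -/- in FT4, TS3, M1 and M3 and -/+ in FT1, FT3, FT5, TS2, TS4 and M4. The genotypes therefore differed within each group, and ages are not given in the sources used here. Recombination in this model is driven by doxycycline from a Pax8 promoter, which is active in the secretory epithelium of the tube. M1 to M4 were peritoneal metastases and M6 an ovarian tumor. The study took 3 of its metastatic tumors from an earlier publication and does not name which. For those tumors, that source and the group M cannot be told apart. The labels call the source of TS both serum and plasma, and plasma is used here.

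miR-126 is the best known miRNA of endothelial cells, the lining of blood vessels. Its hairpin lies within Egfl7, a gene for a protein that endothelial cells secrete, and both arms of the hairpin give a stable miRNA. The 3p arm is known to sustain VEGF signaling and vessel integrity by repressing inhibitors of that pathway, such as Spred1, and it also represses the adhesion molecule Vcam1. The 5p arm is known to support endothelial proliferation by repressing Dlk1. In the circulation miR-126 is carried in part by platelets and vesicles.

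The hairpin and its 3p arm are shown because the comparison of the arms turns on them. In the RefSeq annotation of GRCm38.p6 the hairpin (mir-126a) covers chr2:26591357-26591429 on the plus strand, 73 bases within Egfl7, and the 3p arm takes positions 46 to 67. Capitals mark the 3p arm in the hairpin and the seed (bases 2 to 8) in the mature miRNA.
mir-126a hairpin: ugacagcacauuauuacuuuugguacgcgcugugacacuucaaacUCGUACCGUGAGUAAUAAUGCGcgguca
miR-126a-3p: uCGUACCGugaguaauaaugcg
The mature 3p arm lies at chr2:26591402-26591423. Of the 1738 mature miRNAs in the table used, 1 has this seed, miR-126a-3p itself. A second annotated hairpin, mir-126b, lies at chr2:26591363-26591420 on the minus strand, inside the span of mir-126a, and the panel has no probe named for it. The mature 5p arm, miR-126-5p, is named only.

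Tissue samples had 70164 to 598321 counts on mouse miRNAs in all, and plasma samples 18350 to 269005. A count was called above detection where it exceeded the mean plus 2 SD of the 8 negative hybridization controls of its own sample, which put the level at 18.3 to 67.7 counts for tissue and 25.0 to 48.4 for plasma. Levels below are normalized counts, that is, counts scaled by a geometric mean (over the top 100 miRNAs in tissue and the top 30 in plasma), so tissue and plasma levels are on separate scales. Tests used edgeR over all 566 miRNAs, with p-values adjusted over all of them and a threshold of 0.05. The labels give separate samples and do not say more about the replicates, so p-values measure the spread between these samples.

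miR-126-3p was above detection in all 22 samples. In CT its normalized counts were 3941 in CT1, 6376 in CT2, 6148 in CT3, 5064 in CT4 and 3830 in CT5 (mean 5072 ± 1192, SD, n = 5). In M they were 17273 in M1, 17770 in M2, 17422 in M3, 19856 in M4 and 7720 in M6 (16008 ± 4749, SD, n = 5). Every M sample lay above the highest CT sample, with the ovarian tumor M6 nearest to CT. miR-126-3p rose 3.16-fold in M (95% interval 1.68 to 5.95, edgeR, log2 fold change 1.66, SE 0.43, adjusted p = 0.0155). In this comparison 14.5% of all miRNAs passed the threshold, 10.2% as higher, and 7.42% did not overlap and were higher. The exact two-sided permutation p of the mean log2 level was 0.00794, the smallest that the 252 splits can give. Without CT1 the edgeR adjusted p was 0.0540 (log2 fold change 1.58) and without CT4 it was 0.0516 (1.66). The call was thus lost when either of these control tubes was left out, while the log2 fold change moved little. The call was also lost when CT, FT and M were fitted together (edgeR adjusted p = 0.155). Scaling to the positive ligation controls lost it too (log2 fold change 1.54, edgeR adjusted p = 0.343).

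In FT the 3p arm varied more than in any other group. Its normalized counts were 11847 in FT1, 54989 in FT2, 2825 in FT3, 22324 in FT4 and 4185 in FT5 (19234 ± 21438, SD, n = 5). FT1, FT2 and FT4 lay above all CT samples, FT5 lay among them and FT3 lay below them. The highest FT sample was 19.5 times the lowest, against 1.66 times in CT and 2.57 times in M. The edgeR log2 fold change of FT against CT was 1.92 (SE 0.75, 95% interval 0.38 to 3.47) with an adjusted p of 0.471, so the difference did not pass the threshold. Of all miRNAs 0.177% passed it. The exact permutation p was 0.183. Without FT2 the log2 fold change was 1.02. M and FT overlapped, with a log2 fold change of -0.26 (95% interval -2.05 to 1.52, edgeR adjusted p = 0.993), and without FT2 its sign turned to 0.64. In the order of arithmetic mean levels, CT, M, FT, the neighbours CT and M differed beyond their spread and M and FT did not. In the order of mean log2 levels, CT, FT, M, no neighbours passed the threshold. There the mean log2 level differed by 1.17 (FT minus CT) and by 0.45 (M minus FT).

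**Figure D1:**
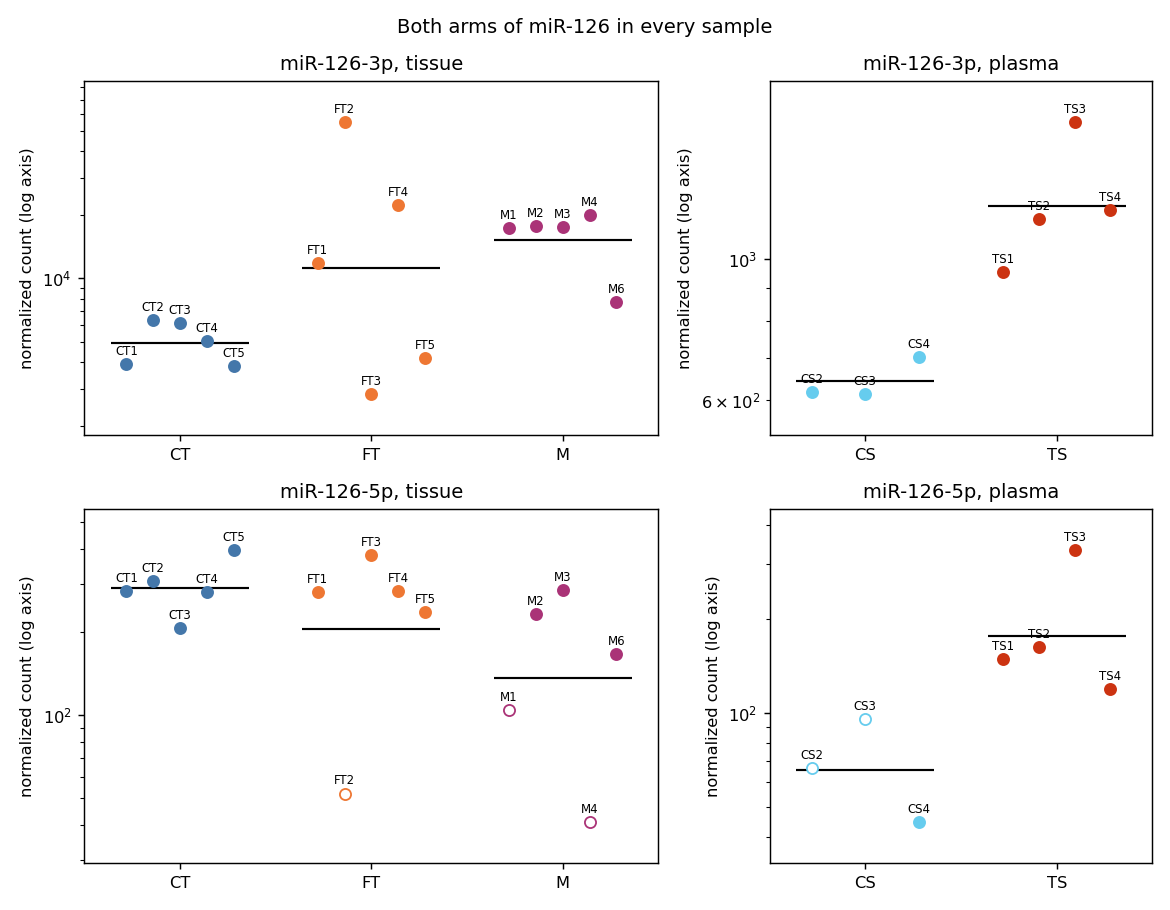
Normalized counts of miR-126-3p (upper panels) and miR-126-5p (lower panels) on a log axis, 1 point per sample, with tissue groups (CT, FT, M) on the left and plasma groups (CS, TS) on the right. Lines are means on the log scale and open points are counts that were not above detection. miR-126-3p in all 5 M samples lies above all 5 CT samples, while miR-126-5p in M2 and M3 lies among the CT values.

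miR-126-5p did not follow the 3p arm in tissue. In CT its normalized counts were 283 in CT1, 307 in CT2, 208 in CT3, 280.5 in CT4 and 398 in CT5 (295 ± 68.5, SD, n = 5). In M they were 104 in M1, 233 in M2, 284 in M3, 41.1 in M4 and 167 in M6 (166 ± 97.1, SD, n = 5). M1, M4 and M6 lay below all CT samples and the other two among them. The deposited counts behind M1 and M4 were 39 and 17, not above the detection levels of 44.7 and 44.1 in those samples, so their 5p levels cannot be told from background. The edgeR log2 fold change of M against CT was -0.83 (SE 0.50, 95% interval -1.88 to 0.22, adjusted p = 0.274), and the exact permutation p was 0.0635.

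In FT the 5p arm was 279 in FT1, 52.1 in FT2, 380.4 in FT3, 282 in FT4 and 236 in FT5 (246 ± 121, SD, n = 5). FT2, which had the highest 3p level of the series, had the lowest 5p level in FT, from 22 counts, below its detection level of 36.1. The other FT samples lay within the CT range. The log2 fold change of FT against CT was -0.26 (95% interval -1.36 to 0.84, edgeR adjusted p = 0.857), and its sign turned under miR-425 scaling (0.11) and under ligation control scaling (0.73). M against FT gave -0.57 (95% interval -2.05 to 0.92, edgeR adjusted p = 0.993). No neighbours in the order of mean 5p levels, M, FT, CT, differed beyond their spread in these tests.

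The ratio of the 3p to the 5p count within a sample does not depend on the scaling. The probes of the arms may count with different efficiency, so the ratio is not a ratio of molecules and only differences of it between samples are read. In CT the ratio was 13.9 in CT1, 20.7 in CT2, 29.6 in CT3, 18.1 in CT4 and 9.62 in CT5 (18.4 ± 7.54, SD, n = 5). In M it was 166 in M1, 76.3 in M2, 61.4 in M3, 483 in M4 and 46.2 in M6. With the 5p count of M1 and M4 set to the detection level the ratio was at least 144 in M1 and at least 186 in M4. All M samples, also the 3 whose 5p arm was above detection, lay above the highest CT sample.

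The log2 ratio was higher in M than in CT by 2.70 (SE 0.65, 95% interval 1.35 to 4.06), a 6.51-fold rise. This passed the threshold in limma over the 65 miRNAs with both arms on the panel (adjusted p = 0.00924). Of the 65 ratios, 20% passed it and 10.8% as higher, and 6.15% did not overlap and were higher. The exact permutation p was 0.00794, the smallest possible. Leaving out each sample in turn gave differences of 2.17 to 3.02, all with adjusted p-values of 0.0279 or less. With counts raised to the detection level the difference was 2.39. With the negative controls subtracted it was 3.62 and did not pass (adjusted p = 0.123, 12 ratios tested).

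In FT the ratio was 42.4 in FT1, 1055 in FT2, 7.43 in FT3, 79.1 in FT4 and 17.7 in FT5. In FT2 it was at least 643 when the 5p count was set to the detection level. FT1, FT2 and FT4 lay above all CT samples and FT3 below them. The log2 ratio differed from CT by 1.66 (SE 1.04, 95% interval -0.60 to 3.92, limma adjusted p = 0.555) and by 0.59 without FT2. Of the 65 ratios, 0 passed the threshold in limma here and 6 (9.23%) had an unadjusted p under 0.05. M and FT differed by 1.04 (95% interval -1.35 to 3.44, limma adjusted p = 0.765), and by 2.11 without FT2 and 0.33 without FT3. Here 0 of the 65 ratios passed in limma and 4 (6.15%) had an unadjusted p under 0.05.

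**Figure D2:**
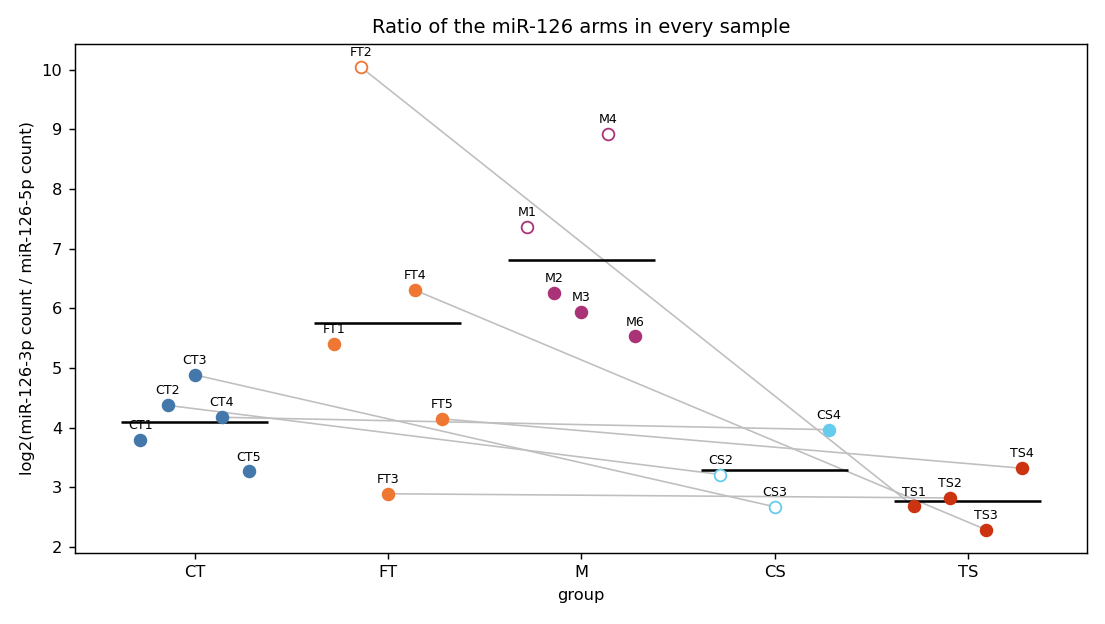
log2 of the miR-126-3p count over the miR-126-5p count in every sample by group, with group means as black lines and open points where the 5p count was not above detection. Grey lines join a tube with the plasma of the same mouse. The 5 M samples, at 5.53 to 8.92, lie above the 5 CT samples, at 3.27 to 4.89, and each plasma sample lies below the tube it is joined to.

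Among the 65 miRNAs with both arms on the panel, the change of the miR-126 ratio between CT and M was the second largest in size, after miR-532. The 3 largest increases that passed the threshold were miR-126 (2.70), miR-450a (2.52) and miR-675 (2.04). The 3 largest decreases were miR-532 (-3.60), miR-465a (-2.60) and miR-666 (-2.38). The less abundant arm had a mean of 5.4 counts for miR-450a, 9.9 for miR-675, 6.3 for miR-532, 3.2 for miR-465a and 7.5 for miR-666 over the M and CT samples, against 213.9 counts for miR-126-5p. In 4 of the 65 miRNAs both arms were above detection in at least 10 of the 15 tissue samples, and miR-126 was the 1 of these 4 whose ratio passed the threshold. The other three were miR-125b, with a difference of 1.01 (limma adjusted p = 0.231), miR-199a, a miRNA of mesenchymal cells (0.94, 0.270), and miR-142, a leukocyte miRNA (-0.14, 0.905). Whether the miR-126 difference exceeded these was not tested.

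**Figure D3:**
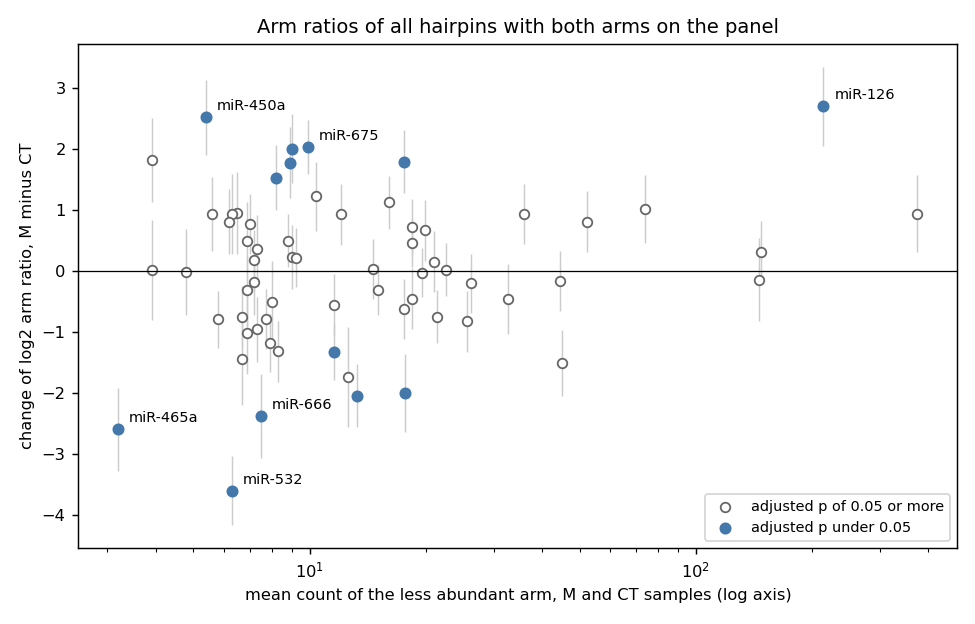
Difference between M and CT in the log2 ratio of the arms for each of the 65 miRNAs with both arms on the panel, against the mean count of the less abundant arm on a log axis. Bars are standard errors, and filled points have an adjusted p under 0.05. miR-126, at 213.9 counts and 2.70, lies far to the right of the other filled points.

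The signal of the housekeeping mRNA probes moved with the ratio in tissue. The geometric mean of the 4 housekeeping probes (Actb, B2m, Gapdh, Rpl19), relative to that of the scaling miRNAs, was between 0.842 and 2.70 in CT, between 0.517 and 31.1 in FT and between 4.70 and 34.8 in M. FT2 and M4, with the highest 2 ratios of the series, had 31.1 and 34.8, and M1 followed with 13.4. FT3, with the lowest ratio in tissue, had the lowest value, 0.517. All M samples lay above all CT samples in this measure, so it separates M from CT as the arm ratio does. FT2, M1 and M4 also had positive hybridization controls at a geometric mean of 1185, 1409 and 1458 counts, among the 4 highest of the 15 tissue samples, and CT2 was the other at 1314. The part of these in the results was not tested.

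**Figure D4:**
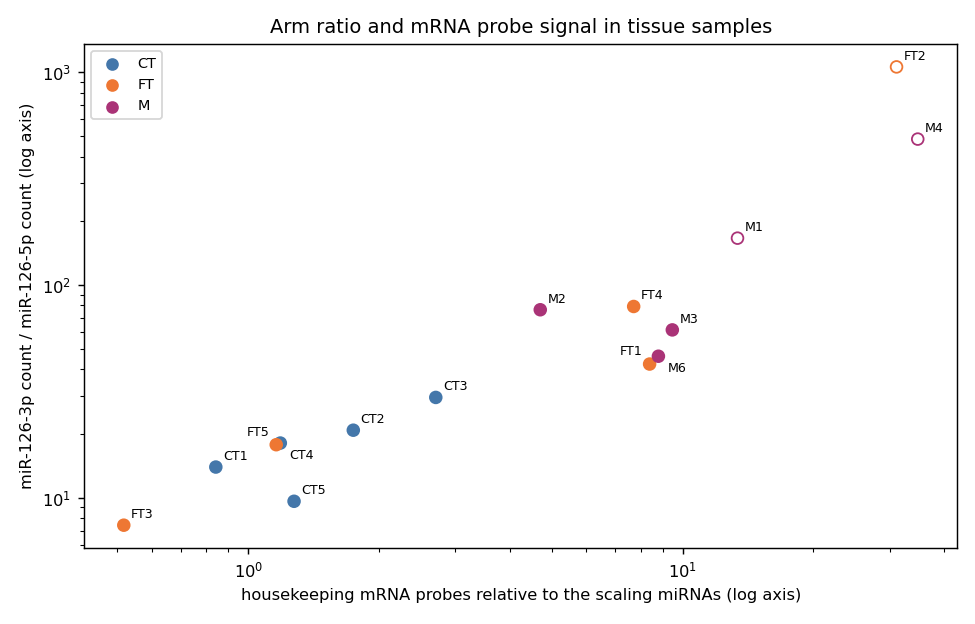
Ratio of the miR-126-3p to the miR-126-5p count against the housekeeping mRNA signal relative to the scaling miRNAs in the 15 tissue samples, both on log axes, with open points where the 5p count was not above detection. FT3 is lowest in both measures, and FT2, M4 and M1 are the highest 3 in both.

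Markers of other cell types also differed between M and CT. In bulk tissue, fewer cells of a type and less RNA per cell cannot be told apart. The summed normalized counts of 5 ciliated epithelium markers were 312 to 3767 in CT and 27.9 to 88.3 in M. In M, 5 of 5 were not above detection in any sample. Against CT 4 of 5 fell, where 4.24% of all miRNAs did. miR-34c, the most reduced of them, averaged 1.89 normalized counts in M and 947 in CT. Its M level stands on a mean of 1 count, which cannot be told from background, and no marker had a count of 0. Of 5 smooth muscle and stroma markers, 3 fell (miR-143, miR-145 and miR-1), with sums of 4713 to 13280 in CT and 626 to 3821 in M. Of 5 epithelium markers, 1 fell (miR-141), with sums of 9285 to 11038 in CT and 242 to 42010 in M. The counts of markers that rose in M stand beside 10.2% of all miRNAs. Of 5 leukocyte markers, 1 rose (miR-223, also among the platelet markers), with sums of 593 to 1164 in CT and 967 to 6301 in M. Platelet markers, of which 4 were on the panel, summed to 389 to 759 in CT and 510 to 4166 in M, and 1 rose. Of 4 erythrocyte markers, 1 rose (miR-486), with sums of 2881 to 4771 in CT and 2233 to 14358 in M. Of 3 liver markers, 1 rose in both FT (where 0.177% of all miRNAs passed) and M (miR-122), with sums of 66.2 to 93.7 in CT, 68.4 to 1342 in FT and 64.2 to 587 in M. No other marker passed the threshold in M or FT against CT. The part of these in the miR-126 levels was not tested.

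In plasma the normalized counts of both arms were higher in every TS sample than in every CS sample, and neither passed the threshold. For the 5p arm this separation rests in part on the counts of CS2 and CS3, which were not above detection. miR-126-3p was 619 in CS2, 613 in CS3 and 700.3 in CS4 (644 ± 48.6, SD, n = 3). It was 953 in TS1, 1154 in TS2, 1635 in TS3 and 1192 in TS4 (1234 ± 287.5, SD, n = 4). The edgeR fold was 1.91 (95% interval 0.64 to 5.75, log2 fold change 0.94, adjusted p = 0.580). Of all miRNAs, 0 passed the threshold in this comparison with edgeR, DESeq2, limma or the methods' t-test, 42 (7.42%) had an unadjusted p under 0.05 in edgeR, and 0.707% did not overlap and were higher. The exact permutation p was 0.0571, the smallest that 35 splits can give, so 4 samples against 3 cannot reach the threshold in that test.

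miR-126-5p was 66.7 in CS2, 96.1 in CS3 and 44.8 in CS4 (69.2 ± 25.7, SD, n = 3) and 149 in TS1, 163 in TS2, 334 in TS3 and 119 in TS4 (191 ± 96.9, SD, n = 4). The values of CS2 and CS3 stand on 21 and 13 counts, not above detection, and CS4 on 108. The log2 fold change was 1.49 (95% interval -0.24 to 3.23, edgeR adjusted p = 0.570), and 0.64 with counts raised to the detection level. The exact permutation p was 0.0571. The median log2 fold change of all miRNAs in plasma was -0.89, and relative to it the 3p arm stood at 1.83 and the 5p arm at 2.39. The corresponding medians were 0.15 in FT and 0.29 in M, which put the 3p arm at 1.77 in FT and 1.37 in M relative to them. The plasma median depended on the setting. It was -0.05 with TMM (3p arm 1.46, 5p arm 2.14) and 0.32 at a minimum mean count of 50 (0.94 and 1.49). With negative controls subtracted it was 0.80 over the 135 miRNAs tested (1.03 and 3.05), against medians of 0.39 in FT and 0.44 in M. TS3, the highest TS sample in both arms, also had the highest summed platelet (2144) and leukocyte (2326) markers in TS. TS4, above TS1 and TS2 in the 3p arm and lowest in the 5p arm, had the lowest of both sums (331 and 537). Platelet sums were 383 to 591 in CS and 331 to 2144 in TS, with 1 of the 4 above detection in all samples of each group. Erythrocyte sums were 17081 to 44989 in CS and 7721 to 65025 in TS. The part of these was not tested.

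The ratio of the arms in plasma was 9.29 in CS2, 6.38 in CS3 and 15.6 in CS4, and 6.41 in TS1, 7.07 in TS2, 4.89 in TS3 and 9.99 in TS4. The groups overlapped and the log2 ratio differed by -0.51 (95% interval -1.64 to 0.62, limma adjusted p = 0.721), with 1.54% of the ratios past the threshold. The sign turned to 0.18 with counts raised to the detection level. With the negative controls subtracted the difference was -2.10 and passed among the 3 ratios left to test (adjusted p = 0.00894). CS2 and CS3 have a 5p count at background in either setting.

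Plasma and tube came from the same mouse in 7 cases. The log2 ratio was lower in plasma than in the tube in 7 of 7 mice, by -1.16 for CS2 with CT2, -2.21 for CS3 with CT3, -0.21 for CS4 with CT4, -7.36 for TS1 with FT2, -0.07 for TS2 with FT3, -4.01 for TS3 with FT4 and -0.83 for TS4 with FT5. The 5p counts of CS2, CS3 and FT2 were not above detection. With the negative controls subtracted, the ratio was lower in plasma in 5 of 7 mice and higher in the other two, at 47.4 in CS2 against 22.2 in CT2 and at 19.6 in CS4 against 18.6 in CT4. The log2 ratio as counted spanned 2.89 to 10.04 in these tubes and 2.29 to 3.97 in plasma. The mean difference was -2.27 (SE 0.89, 95% interval -4.17 to -0.36). It did not pass the threshold in limma over the 65 ratios (adjusted p = 0.100), where 12.3% passed and 4.62% as lower. The exact sign-flip p was 0.0156, the smallest that 7 mice can give. Without the mouse of FT2 the mean difference was -1.42. With the negative controls subtracted it was -1.74 and did not pass (limma adjusted p = 0.210, 12 ratios tested). With counts raised to the detection level, a setting chosen after seeing the data, it passed on the same number of ratios (-2.46, limma adjusted p = 0.0152). Input was 100 ng for tissue and 10 ng for plasma, and tissue and input cannot be told apart here.

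The change from control to tumor-bearing mice was set between tube and plasma in an interaction contrast, which treats tube and plasma of 1 mouse as separate samples. FT minus CT exceeded TS minus CS by 0.99 for the 3p arm (edgeR adjusted p = 0.647), close to the median of 0.98 over all miRNAs. That closeness depended on the setting. With TMM the 3p contrast was 0.04 against a median of 0.05. With negative controls subtracted it was 1.08 against 0.15, and at a minimum mean count of 50 it was 0.99 against 0.27. For the 5p arm the contrast was -1.76 (SE 0.87, edgeR adjusted p = 0.469). Of all miRNAs, 0 passed the threshold in edgeR in this contrast and 60 (10.6%) had an unadjusted p under 0.05.

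The miRNAs whose counts most closely kept a fixed proportion to each arm were found by the SD of the log2 ratio of their counts over samples, which share library and depth. In tissue, over 15 samples and 140 miRNAs with a mean of at least 50 counts, the closest to miR-126-3p were miR-22 (SD 0.51), let-7c (0.51), let-7i (0.53), miR-98 (0.58) and miR-652 (0.60), against a median of 1.61. let-7c, let-7i and miR-98 are members of the let-7 family. miR-126-5p, from the same hairpin, stood at rank 98 of 140 with an SD of 2.02. The closest to miR-126-5p in tissue were miR-26b (0.50), miR-130a (0.61), miR-872 (0.64), miR-30b (0.72) and miR-125a-5p (0.74), against a median of 1.60. In plasma, over 7 samples and 94 miRNAs, the closest to miR-126-3p were miR-122 (0.39), miR-27a (0.45), miR-26b (0.48), miR-199a-3p (0.49) and miR-30a (0.51), and miR-126-5p stood at rank 8 of 94 (0.55, against a median of 1.10). The SD between the arms themselves was thus 0.55 in plasma and 2.02 in tissue, a difference that was not tested.

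Other miRNAs known to act in vessel growth were taken as a list of 22 probes. In M against CT 5 rose and 0 fell, with a median log2 fold change of 0.42 against 0.29 over all miRNAs. Of all miRNAs, 10.2% rose and 4.24% fell there. The largest was miR-210, a hypoxia-induced miRNA, with 931 ± 439 in M and 71.7 ± 15.6 in CT (SD, n = 5 each, log2 fold change 3.69, edgeR adjusted p = 0.000107). miR-132, which acts on activated endothelium by repressing a Ras inhibitor, rose by 3.52 (edgeR adjusted p = 0.00119). miR-378 rose by 2.25 (0.00300). The miR-17-92 cluster and its paralogs gave the other two, the shared probe of miR-20a and miR-20b (2.12, 0.00538) and the shared probe of miR-106a and miR-17 (2.10, 0.00952), which cannot tell those miRNAs apart. The other 17 did not pass. Among them were miR-18a (0.9997, edgeR adjusted p = 0.185), miR-19b (0.14, 0.823) and miR-92a (0.75, 0.367), also of the miR-17-92 cluster. Of the listed members of this cluster and its paralogs, only the shared probes were thus called. The 17 also held miR-23a, miR-23b, miR-24, miR-27a and miR-27b of the miR-23-27-24 clusters, with log2 fold changes of -0.69 to 0.28. In FT against CT and in TS against CS, 0 of 22 passed in edgeR, with 4 and 1 at an unadjusted p under 0.05 (7.24% and 7.42% of all miRNAs), and the medians were 0.27 and 0.35 against 0.15 and -0.89 over all miRNAs. The plasma median of -0.89 depended on the setting, as given above. In M against FT 0 of 22 passed (3 at an unadjusted p under 0.05), where 1.59% of all miRNAs passed and 8.3% had an unadjusted p under 0.05. FT and M were both compared with the same CT samples.

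**Figure D5:**
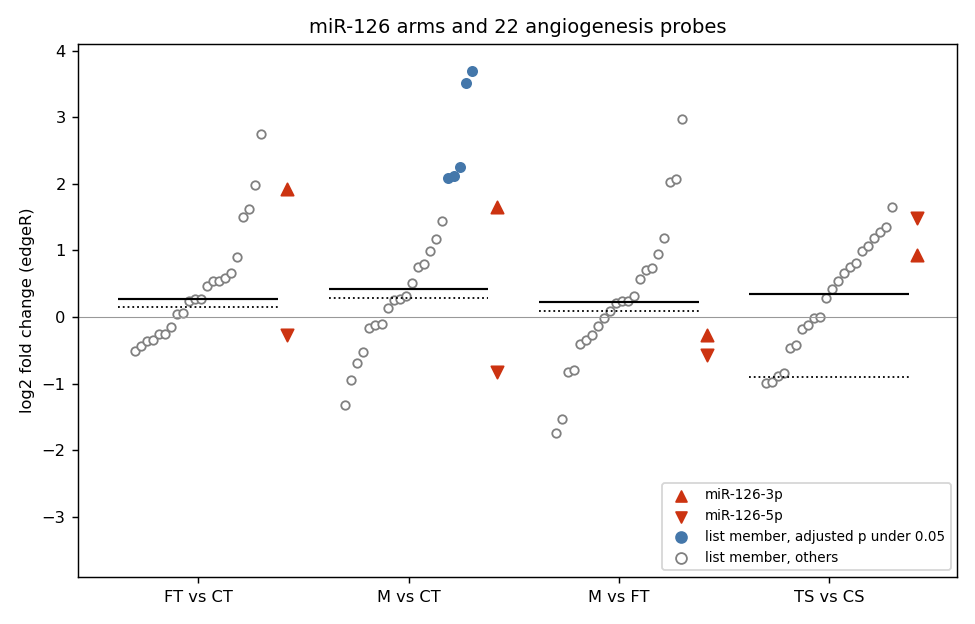
edgeR log2 fold changes of the 22 angiogenesis probes (circles, in order of value) and of the miR-126 arms (triangles) in 4 comparisons. Filled circles have an adjusted p under 0.05, solid lines are the medians of the 22 and dotted lines the medians of all 566 miRNAs. The 5 filled circles all belong to M against CT, at 2.10 to 3.69, above miR-126-3p at 1.66.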

How the data were processed

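The authors deposited whole-number barcode counts of the nCounter mouse miRNA assay v1.5 for 626 probes in 22 samples, of which the 566 mouse miRNA probes were tested. Of the table's value columns, 0 were left without a sample. The authors normalized in nSolver without background subtraction, to the most abundant 100 miRNAs in tissue and 30 in plasma, and used a two-tailed t test. That scaling is not in the deposited counts and was repeated here. Both arms are among the 100 in tissue, and the 3p arm among the 30 in plasma. The samples M5 and CS1, left out by the study, were not analysed here, and its comparison tables were not used.

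Levels were tested with edgeR 4.0.16 (quasi-likelihood test on the counts, geometric means as library sizes) and arm ratios with limma 3.58.1 on log2(3p count / 5p count) over 65 miRNAs, with a trend on the mean count and 0 pseudocount, in R 4.3.3, each with only the groups compared. p-values were adjusted by Benjamini-Hochberg, also those of the methods' t-test, for which the study used p under 0.05 and names no adjustment. Exact permutation tests used scipy 1.17.1 in Python 3.11.15, and figures matplotlib 3.10.9. Intervals are at 95%. Alternatives were other scalings (TMM, median-ratio, miR-425, ligation controls, without the miR-126 arms), DESeq2 1.42.0, limma and the methods' t-test on levels, pseudocounts of 1 and 10, minimum mean counts of 20 and 50, subtraction of the negative controls, the replicate number as a block, and each sample left out. Raising counts to the detection level was chosen after seeing the data. With subtracted or raised counts, only miRNAs above detection in 2 or more samples were tested, and the ratios without trend.

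In simulated data with 200 of 566 miRNAs changed, edgeR recovered 99.5% (FT vs CT), 99% (M vs CT), 93.5% (M vs FT) and 75% (TS vs CS), with 1.49%, 3.41%, 3.11% and 2.6% of calls false. For ratios, limma recovered 100%, 100%, 95% and 95% of 20 changed pairs. Recovery of differences of the size found for miR-126 was not tested.

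The members, the marker lists, the angiogenesis list and the tests were chosen with earlier results of these data known. Named are both arms, the 5 miRNAs closest in proportion to an arm, the angiogenesis members past the threshold (the rule allowed 4 each way, and the fifth is named so that the count is complete), the 3 largest arm-ratio changes each way in M vs CT, and miR-125b, miR-142, miR-199a, miR-18a, miR-19b, miR-92a and the members of the miR-23-27-24 clusters, which were chosen after their values were seen. Platelet markers were miR-223, miR-191, miR-24 and miR-103 (the list's miR-197 was not matched to a probe). Erythrocyte markers were miR-451, miR-144, miR-486 and miR-16. Leukocyte markers were miR-150, miR-155, miR-223 and both arms of miR-142. Smooth muscle and stroma markers were miR-1, miR-133a, miR-133b, miR-143 and miR-145. Epithelium markers were miR-141, miR-429 and miR-200a, b and c. Ciliated epithelium markers were miR-449a, miR-449b, miR-34c and both arms of miR-34b, and liver markers miR-122, miR-192 and miR-194. Sample numbers do not pair tissue groups. Plasma and tube of 1 mouse are CS2 with CT2, CS3 with CT3, CS4 with CT4, TS1 with FT2, TS2 with FT3, TS3 with FT4 and TS4 with FT5, per the study's supplement. 2 mice gave both an FT and an M sample, which are not named, so all M were treated as separate. The other engineered alleles of these mice are not reported here.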

Additional observations from a re-analysis of the deposited data

Results flagged for a closer look

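On the log2 scale, 12 sets (each arm and the ratio, in CT, FT, M and TS) were searched for a sample far from the others of its group, and 2 were found. Chance alone gives about 1 in 20. In FT, miR-126-5p of FT2 was lowest at 52.1 normalized counts, and its gap to the nearest sample, FT5 at 236, was 0.760 of the range of the group. In M, miR-126-3p of M6, the ovarian tumor, was lowest at 7720, and its gap to the nearest sample, M1 at 17273, was 0.853 of the range. The causes were not tested.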

How the results depend on the processing

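Of 335 values under alternative settings, 317 kept both direction and side of the threshold. miR-126-3p in M against CT did not pass under ligation control scaling (1.54), with CT, FT and M fitted together (1.66) or with the replicate block (1.77, edgeR adjusted p = 0.0738), and ranged from 1.57 to 1.83 with 1 sample left out. Its ratio there did not pass with negative controls subtracted (3.62) or with the replicate block (2.81, limma adjusted p = 0.0631). Same-numbered samples did not deviate together in every pair (correlations of -0.18 to 0.12 for M and CT), so the numbers are names, and the replicate block changed no other call of the arms. miR-126-3p in M against FT reversed to 0.45 in limma with pseudocounts of 1 and 10 and in the methods' t-test and to 0.31 with the replicate block, and ranged from -0.54 to 0.64 with 1 sample left out. miR-126-5p in FT against CT reversed to 0.11 with miR-425 scaling and 0.73 with ligation control scaling. The plasma ratio passed at -2.10 with negative controls subtracted and reversed to 0.18 with counts raised to detection, when 3 ratios were tested. Plasma against tube passed at -2.27 in the exact sign-flip test (unadjusted p = 0.0156) and at -2.46 with counts raised to detection, but not at -1.74 with negative controls subtracted. Except where fewer ratios or samples entered, the cause was not tested. 5p counts near the negative controls in FT2, M1, M4, CS2 and CS3 limit the ratio.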
